A study of Mus musculus with 24 samples.

Results

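The 10 genes described here code for enzymes, and for the activating protein of 1 of them, that turn membrane arachidonic acid into prostaglandins, thromboxane and leukotrienes: Pla2g4a, Ptgs1, Ptgs2, Ptges, Ptges2, Ptges3, Tbxas1, Alox5, Alox5ap and Lta4h. They were taken by symbol from a table of 24273 genes. Each symbol had 1 row, and all 10 passed the filter on low values that left 13901 genes for testing. The table came from RNA sequencing of bone marrow-derived macrophages (BMDMs), macrophages grown in culture from bone marrow, of mice on a C57BL/6 background. Both genotypes carried LysM-Cre, a Cre recombinase expressed from the lysozyme locus Lyz2 in myeloid cells. The group named FosKO was Fos fl/fl with LysM-Cre, so that Cre should remove Fos in these cells. The control group, named LysM-Cre, had LysM-Cre alone by the series' design text and LysM-Cre with 1 floxed Fos allele by the study's text, and which of these applied is not settled here. Cells were unstimulated (0 h) or received 100 ng/ml of lipopolysaccharide (LPS, a bacterial ligand of TLR4) for 0.5, 1 or 2 h. There were 8 groups of 3 libraries. The study calls its libraries biological replicates. The sources used here give neither the age of the mice nor whether the libraries of a group came from separate animals, so p-values measure the spread between these libraries.

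In this pathway cytosolic phospholipase A2 (Pla2g4a) frees arachidonic acid from membranes. Cyclooxygenases (Ptgs1, mostly constitutive, and Ptgs2, induced by inflammatory signals) convert it to prostaglandin H2, from which prostaglandin E synthases (Ptges, Ptges2, Ptges3) make prostaglandin E2 and thromboxane synthase (Tbxas1) makes thromboxane A2. In the other branch 5-lipoxygenase (Alox5), helped by its activating protein (Alox5ap), makes leukotriene A4, which leukotriene A4 hydrolase (Lta4h) converts to leukotriene B4, an attractant of neutrophils. Macrophages are a known source of both classes of lipid, and FOS, a subunit of the AP-1 transcription factor, is itself induced by LPS.

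Ptgs2, Ptges and Ptgs1 were the members with the largest differences, and the 250 bases before their annotated start sites are shown here. The sequences are from RefSeq on GRCm38.p6, 5′ to 3′ on the strand of the gene. Capitals mark matches to a GC box (GGGCGG) or to a C/EBP motif (TTNCGNAA). The windows are chr1:150099781-150100030 (plus strand) for Ptgs2, chr2:30903298-30903547 (minus strand) for Ptges and chr2:36230176-36230425 (plus strand) for Ptgs1.
Ptgs2: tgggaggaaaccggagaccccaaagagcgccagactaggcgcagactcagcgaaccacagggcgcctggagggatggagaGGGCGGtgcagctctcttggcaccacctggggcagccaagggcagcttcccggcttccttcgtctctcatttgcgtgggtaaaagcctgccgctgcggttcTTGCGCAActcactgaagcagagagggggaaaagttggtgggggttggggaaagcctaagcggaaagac
Ptges: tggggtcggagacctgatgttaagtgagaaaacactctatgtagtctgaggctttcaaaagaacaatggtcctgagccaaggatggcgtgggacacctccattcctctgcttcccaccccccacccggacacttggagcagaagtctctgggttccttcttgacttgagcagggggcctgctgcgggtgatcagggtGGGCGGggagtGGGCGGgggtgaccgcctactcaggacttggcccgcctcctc
Ptgs1: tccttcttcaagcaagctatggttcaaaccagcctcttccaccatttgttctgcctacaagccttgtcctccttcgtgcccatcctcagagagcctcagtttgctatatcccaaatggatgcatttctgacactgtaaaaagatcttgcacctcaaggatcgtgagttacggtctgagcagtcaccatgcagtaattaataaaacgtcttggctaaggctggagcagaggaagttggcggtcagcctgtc

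The Ptgs2 window held a C/EBP match 69 bases and a GC box 170 bases before the start, the Ptges window held GC boxes 53 and 42 bases before it, and the Ptgs1 window held no match. The windows were also searched for AP-1 (TGANTCA), the core of a cyclic AMP response element (TGACG), EGR (GCGNGGGCG), an NF-kB motif and, on the gene's strand alone, TATAAA. All other motifs were searched on both strands, and the GC box and C/EBP motifs were added after the windows had been read. Of 32851 promoter windows of the same length, 6.75% held the AP-1 motif, 17.8% the TGACG core, 7.25% the NF-kB motif, 4.7% the EGR motif, 2.04% the C/EBP motif, 32.7% the GC box and 7.59% TATAAA. Among the 9 members with a window, Tbxas1 alone held an AP-1 match (TGATTCA, 61 bases before the start). Ptges3 alone held an NF-kB match (87 bases before the start). The Tbxas1 window (chr6:38918736-38918985) lies inside the GENCODE gene. Pla2g4a has windows at chr1:149961291-149961540 and chr1:149922440-149922689, the latter inside its GENCODE gene. A match describes letters in its window only. Bases past the annotated start were not searched, so an absent match says nothing about them. Alox5ap has no window in the table used.

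Ptgs2 (ENSMUSG00000032487) occupies 150100031 to 150108227 of chromosome 1, plus strand (GRCm38, GENCODE annotation), and Ptgs1 (ENSMUSG00000047250) 36230426 to 36252272 of chromosome 2, plus strand. Ptges (ENSMUSG00000050737) occupies 30889471 to 30929863 of chromosome 2, minus strand, so that the RefSeq start site of its window is inside the GENCODE gene. Gm13400 overlaps Ptges on the same strand, and how reads were divided between them is not known here. On the opposite strand, Gm43621 overlaps Ptgs1. Pla2g4a (chromosome 1, 149829618 to 149961290, minus strand), Tbxas1 (chromosome 6, 38875404 to 39084585, plus strand) and Alox5ap (chromosome 5, 149264767 to 149288153, plus strand) also have annotated genes overlapping them on the opposite strand, and Tbxas1 has Gm23010 on its own strand. All 10 members code for protein.

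The labels were first checked against Fos. In the LysM-Cre libraries Fos averaged 11.11, 13.52, 11.15 and 9.52 at 0, 0.5, 1 and 2 h, and in the libraries labelled FosKO 12.60, 12.75, 12.78 and 12.80, so that Fos went against the label at 0, 1 and 2 h and was lower only at 0.5 h. Its rise at 0.5 h was 2.41 in LysM-Cre and 0.15 in libraries labelled FosKO, a response difference of -2.26 (limma adjusted p 1.38e-09). With 1 value per gene, reads from the floxed part of Fos cannot be told from other Fos reads, so all directions given below rest on the labels. A content of 18S ribosomal RNA (Rn18s-rs5) of at most 17.00 set apart 5 libraries, which were replicate 3 of LysM-Cre and replicate 1 of FosKO at 0.5 h, and replicates 2 and 3 of LysM-Cre and replicate 1 of FosKO at 1 h. The other 19 lay between 18.57 and 19.39. Values are log2 values as deposited, a difference of 1 is a doubling, and how many reads each library had is unknown, so no counting interval is given. Of the 7 macrophage markers, Adgre1 (14.61 to 15.21), Csf1r (14.95 to 15.28) and Cd68 (15.05 to 15.38) were high in every library. So was Itgam (14.16 to 14.55), but it was lower in libraries labelled FosKO with no overlap at 0, 0.5 and 1 h. Cd68, Fcgr1, Mertk and Lyz2 were higher in libraries labelled FosKO, with no overlap between the genotypes. Cd68 was 15.05 to 15.14 in LysM-Cre libraries and 15.21 to 15.38 in libraries labelled FosKO. Fcgr1 was 12.20 to 12.74 in LysM-Cre libraries and 12.98 to 13.70 in libraries labelled FosKO, and Mertk was 9.07 to 9.98 and 10.66 to 10.99. Lyz2, whose locus carries Cre in both genotypes, was 10.87 to 11.57 in LysM-Cre libraries and 16.08 to 16.33 in libraries labelled FosKO, with no overlap, and the part of this in the results was not tested. Fewer cells of a type and less RNA per cell cannot be told apart in these bulk samples.

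Per kilobase of exon, on the log2 scale, the levels before LPS in LysM-Cre libraries ran from 12.04 ± 0.025 (SD, n = 3) for Alox5ap through Ptges3 (9.90 ± 0.047), Tbxas1 (7.91 ± 0.037) and Lta4h (7.31 ± 0.051) to Ptgs2 (6.13 ± 0.12) and Pla2g4a (6.02 ± 0.09). Ptgs1 (5.05 ± 0.11), Ptges2 (5.03 ± 0.027), Ptges (4.19 ± 0.062) and Alox5 (3.14 ± 0.15) followed. The levels of Ptgs2 and Pla2g4a lay within 1 SD of each other, as did those of Ptgs1 and Ptges2, and the other neighbours in this order were further apart than their SDs. After 2 h of LPS Ptgs2 reached 10.48 ± 0.087 per kilobase, above every member but Alox5ap (11.98 ± 0.039).

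**Figure D1:**
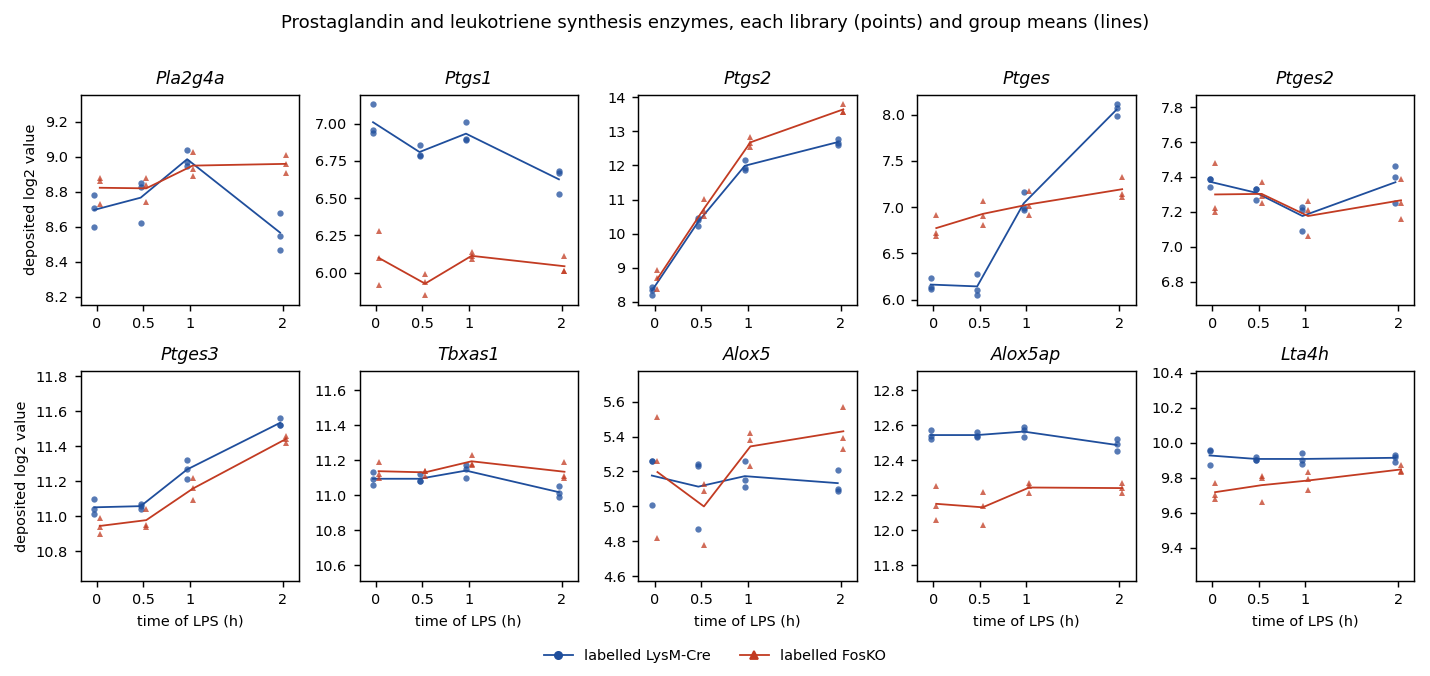
Deposited log2 value (vertical axis, with its own range in each panel) of each of the 10 members against the time of LPS in hours, with 1 point per library and lines through the means of 3 libraries. Ptgs2 climbed in both genotypes from between 8.20 and 8.94 to between 12.61 and 13.79, Ptges climbed mainly in LysM-Cre libraries, and Ptgs1 and Alox5ap lay lower in the libraries labelled FosKO throughout.

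The genotypes were compared at each time to ask which of these enzymes differ where Fos is floxed. A gene was called when its adjusted p from limma was under 0.05. At 0 h, calls of higher expression in FosKO-labelled libraries fell on Ptgs2 and Ptges (2 of 10 members, against 19.5% of all tested genes) and Ptgs1, Alox5ap, Lta4h and Ptges3 were called lower (4 of 10, against 15.9%). At 0.5 h the same 2 were higher (background 21.2%) and Ptgs1, Alox5ap and Lta4h lower (3 of 10, background 19.7%). At 1 h Ptgs2 alone was higher (1 of 10, background 17.98%) and Ptgs1, Alox5ap, Lta4h and Ptges3 were lower (4 of 10, background 15.9%). At 2 h Ptgs2, Pla2g4a and Tbxas1 were higher (3 of 10, background 24.4%) and Ptges, Ptgs1, Alox5ap and Ptges3 lower (4 of 10, background 20.3%). The median difference over the 10 members was -0.028, -0.042, -0.022 and -0.079 at the 4 times, against 0.0025, -0.0032, 0.002 and 0.004 over all tested genes. No member was called with a 2-fold difference between the genotypes.

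**Figure D2:**
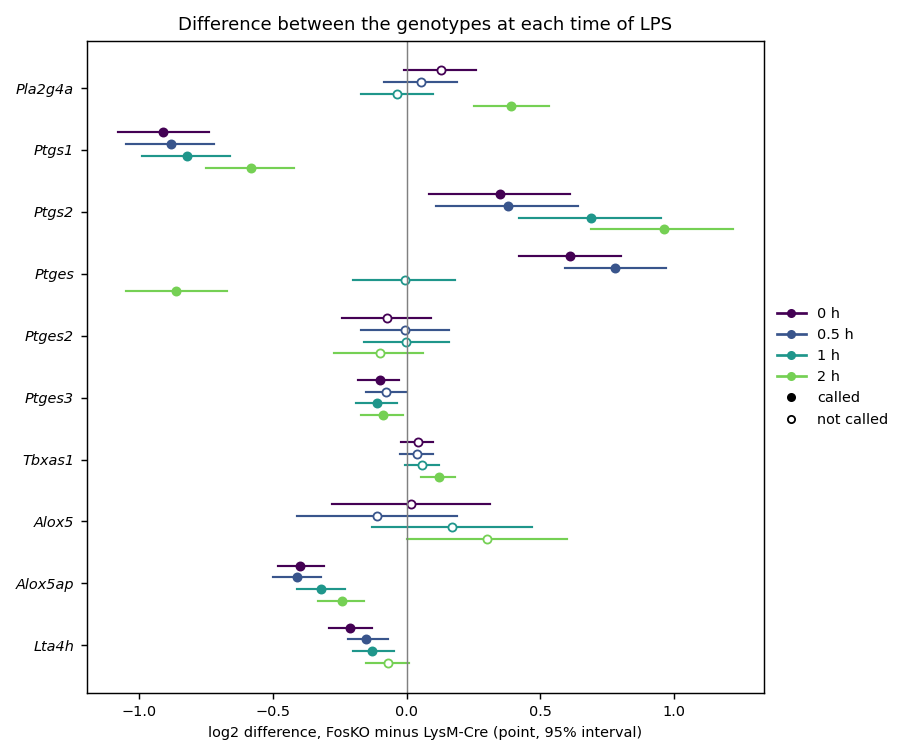
Log2 difference between the genotypes (horizontal axis, libraries labelled FosKO minus LysM-Cre) for each member at 0, 0.5, 1 and 2 h. Points are estimates and bars 95% intervals from limma with 3 libraries per group, and filled points passed an adjusted p of 0.05. Ptgs1 and Alox5ap lay below 0 at all 4 times, Ptgs2 above 0 with a difference of 0.35 at 0 h and 0.96 at 2 h, and Ptges crossed from 0.61 to -0.86.

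The LPS comparisons asked which members respond. In LysM-Cre libraries Ptgs2 alone was called higher at 0.5 h (1 of 10, background 5.09%, with 2.15% of genes lower). At 1 h Ptgs2, Ptges, Pla2g4a and Ptges3 were higher (4 of 10, background 19.2%, with 16.5% lower), and at 2 h Ptgs2, Ptges and Ptges3 were higher (3 of 10, background 30.6%) and Ptgs1 and Tbxas1 lower (2 of 10, background 30.21%). In libraries labelled FosKO, Ptgs2 was higher at 0.5 h (1 of 10, background 4.45%, with 1.47% lower), Ptgs2, Ptges and Ptges3 at 1 h (3 of 10, background 17.6%, with 15.0% lower), and these 3 with Lta4h at 2 h (4 of 10, background 32.6%, with 29.5% lower). No member was called lower in that genotype. The LPS comparisons of a genotype share their 0 h libraries with each other and with the genotype comparison at 0 h, so their values are not independent.

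The response differences asked whether the change from 0 h differed between the genotypes. At 0.5 h no member was called (limma, 0 of 10, also 0 at an unadjusted p under 0.05), against backgrounds of 0.0144% higher and 0.101% lower. At 1 h Ptges was called, with a smaller rise in the libraries labelled FosKO (1 of 10, background 0.727% lower and 0.489% higher). At 2 h Ptgs2 was called with a larger rise (1 of 10, background 7.27%) and Ptges with a smaller one (1 of 10, background 7.70%).

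**Figure D3:**
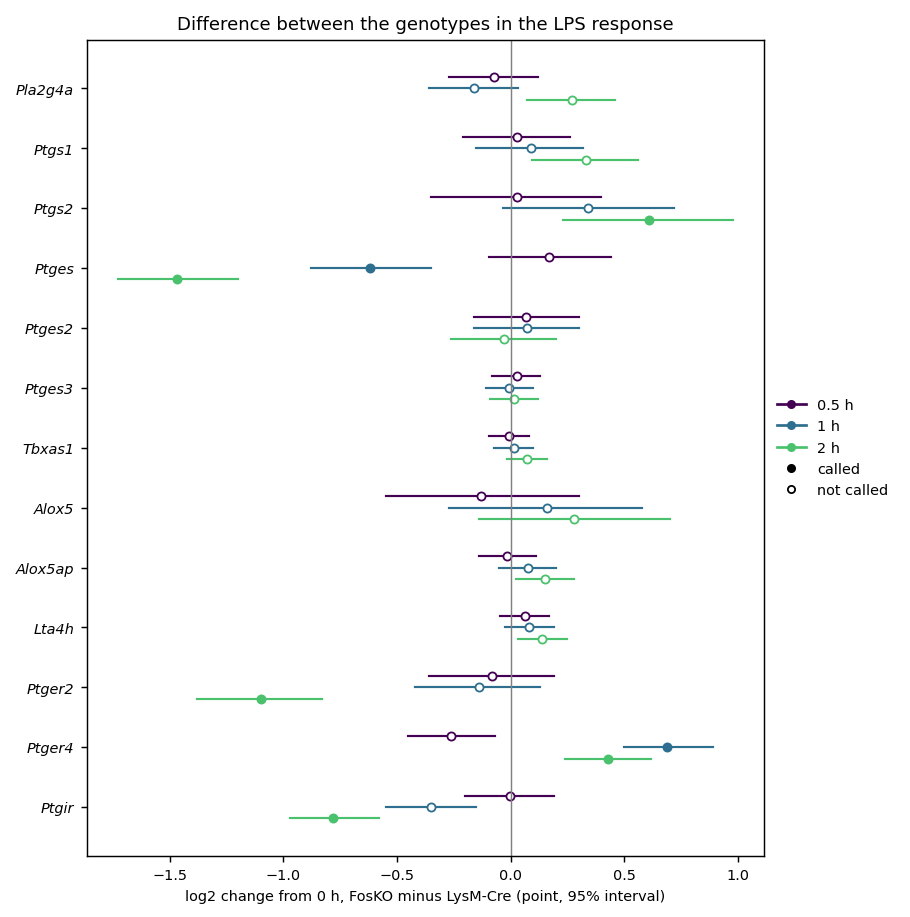
Difference between the genotypes in the log2 change from 0 h (horizontal axis, libraries labelled FosKO minus LysM-Cre) after 0.5, 1 and 2 h of LPS, for the 10 members and the prostaglandin receptors Ptger2, Ptger4 and Ptgir. Points are limma estimates, bars 95% intervals, and filled points were called. Ptges at -1.47 and Ptger2 at -1.10 lay furthest below 0, and Ptger4 at 0.69 and Ptgs2 at 0.61 furthest above it among the called points.

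Pla2g4a, which starts the pathway, changed little. In LysM-Cre libraries it was 8.71, 8.60 and 8.78 before LPS, 9.04, 8.95 and 8.97 after 1 h, and 8.68, 8.47 and 8.55 after 2 h. Libraries labelled FosKO had 8.86, 8.88 and 8.73 before LPS, 9.03, 8.89 and 8.93 after 1 h, and 9.01, 8.91 and 8.96 after 2 h. The LysM-Cre libraries were thus highest after 1 h, and after 2 h they overlapped their range before LPS, with 2 of 3 below it. The genotypes overlapped at 0, 0.5 and 1 h, and after 2 h all 3 libraries labelled FosKO lay above LysM-Cre. The rise after 1 h in LysM-Cre was 0.29 (SE 0.066, limma adjusted p 0.00162), and the genotypes differed after 2 h by 0.39 (SE 0.066, adjusted p 5.61e-05). The response difference after 2 h was 0.27 (95% interval 0.071 to 0.46, adjusted p 0.0612) and was not called, though it was without LysM-Cre replicate 2 before LPS (0.31, 0.0374) or replicate 1 after 2 h (0.32, 0.0291). A replicate block and a replicate block within genotype called it too (limma adjusted p 0.013 and 0.00971).

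Ptgs2, the inducible cyclooxygenase, had the widest range of the members, 5.59 on the log2 scale. In LysM-Cre libraries it was 8.43, 8.20 and 8.35 before LPS, 10.22, 10.39 and 10.45 after 0.5 h, 11.88, 11.93 and 12.16 after 1 h, and 12.61, 12.66 and 12.78 after 2 h. Libraries labelled FosKO had 8.38, 8.71 and 8.94 before LPS, 10.65, 10.53 and 11.01 after 0.5 h, 12.55, 12.65 and 12.83 after 1 h, and 13.57, 13.57 and 13.79 after 2 h. The genotypes overlapped before LPS and were apart at 0.5, 1 and 2 h. In LysM-Cre libraries Ptgs2 rose by 2.03, 3.66 and 4.36 at the 3 times (SE 0.13 each), which is 20.5-fold after 2 h (limma adjusted p 4.04e-17). In libraries labelled FosKO it rose by 2.05, 4.00 and 4.97, which is 31.2-fold after 2 h (adjusted p 5.39e-18).

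The Ptgs2 difference between the genotypes was 0.35 before LPS (SE 0.13, limma adjusted p 0.0376), 0.38 after 0.5 h (adjusted p 0.0223), 0.69 after 1 h (adjusted p 0.000224) and 0.96 after 2 h (adjusted p 3.33e-06), a 1.94-fold higher level after 2 h. The response difference was 0.027 after 0.5 h (95% interval -0.35 to 0.40), 0.34 after 1 h (-0.034 to 0.72, adjusted p 0.718) and 0.61 after 2 h (0.23 to 0.98, adjusted p 0.0252). The value after 1 h ranged from 0.19 to 0.51 over 23 alternatives and was called in none. Within the high 18S libraries the genotype difference was 0.46 after 0.5 h and 0.86 after 1 h, and within the low ones 0.20 and 0.51, each from 1 or 2 libraries per genotype.

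Some of these Ptgs2 calls rested on single libraries or on the model. The genotype difference before LPS no longer passed when LysM-Cre replicate 2 (0.28, adjusted p 0.145), LysM-Cre replicate 3 (0.36, 0.0679), FosKO replicate 2 (0.33, 0.0966) or FosKO replicate 3 (0.22, 0.231) was left out. After 0.5 h it no longer passed when LysM-Cre replicate 1 (0.31, 0.0988) or FosKO replicate 3 (0.24, 0.165) was left out. Without the filter, without the trend on the mean and with only the groups compared, the difference of 0.35 before LPS had adjusted p of 0.0632, 0.0508 and 0.0853, and the last setting gave 0.0528 after 0.5 h. The response difference at 2 h fell to 0.39 under quantile normalisation (adjusted p 0.157), and it also missed the threshold on leaving out unstimulated LysM-Cre replicates 1 and 3 in turn (0.56 and 0.60, adjusted p 0.0654 and 0.0517), the 2 h LysM-Cre replicates 1 and 2 (0.57 and 0.60, 0.0595 and 0.0533), unstimulated FosKO replicate 1 (0.46, 0.0702) or the 2 h FosKO replicate 3 (0.53, 0.0661). The genotype difference at 2 h ranged from 0.76 to 1.01 over 16 alternatives and kept its call in each.

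Ptgs1, the constitutive cyclooxygenase, had its lower levels in FosKO-labelled libraries before LPS and at each time after it. At 0 h it was 6.96, 6.94 and 7.13 in LysM-Cre libraries against 6.28, 6.10 and 5.92, and after 0.5 h 6.86, 6.78 and 6.79 against 5.94, 5.99 and 5.85. At 1 h it was 7.01, 6.89 and 6.90 against 6.09, 6.14 and 6.11, and after 2 h 6.67, 6.53 and 6.68 against 6.11, 6.01 and 6.01. The genotypes did not overlap at any time. The differences were -0.91, -0.88, -0.82 and -0.58 (SE 0.08 each), with limma adjusted p of 3.12e-08, 3.13e-08, 1.06e-07 and 5e-06, so that the level before LPS was 0.532 times that of LysM-Cre. Within the high 18S libraries the difference was -0.90 after 0.5 h and -0.89 after 1 h, and within the low ones -0.85 and -0.81.

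After 2 h of LPS Ptgs1 fell by 0.38 in LysM-Cre libraries (SE 0.08, adjusted p 0.000291). In libraries labelled FosKO the change was -0.055 (95% interval -0.22 to 0.11, adjusted p 0.576), and it turned to 0.06 under quantile normalisation and to 0.036 without FosKO replicate 1 before LPS. The response difference of 0.33 (95% interval 0.093 to 0.56) had an adjusted p of 0.055. It was not called, though 6 of the alternatives called it, the smallest p being that without FosKO replicate 1 before LPS (0.42, adjusted p 0.0105).

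Ptges, the inducible prostaglandin E synthase that acts together with Ptgs2, differed most between the genotypes in its response. In LysM-Cre libraries it was 6.23, 6.14 and 6.12 before LPS, 6.10, 6.05 and 6.28 after 0.5 h, 7.16, 6.97 and 6.99 after 1 h, and 8.07, 7.98 and 8.11 after 2 h. The values in libraries labelled FosKO were 6.69, 6.72 and 6.91 before LPS, 6.90, 6.81 and 7.07 after 0.5 h, 6.91, 7.01 and 7.17 after 1 h, and 7.33, 7.11 and 7.14 after 2 h. The libraries labelled FosKO were all above the LysM-Cre libraries at 0 and 0.5 h, mixed with them after 1 h and all below them after 2 h. The differences were 0.61 (limma adjusted p 2.18e-05), 0.78 (7.11e-07), -0.0079 (95% interval -0.20 to 0.18) and -0.86 (1.82e-07), with an SE of 0.09. At 1 h the sign was not stable, since the value was 0.051 without LysM-Cre replicate 1, 0.052 without FosKO replicate 1 and 0.0023 without FosKO replicate 2.

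Ptges rose by 0.87 after 1 h and 1.89 after 2 h in LysM-Cre libraries (adjusted p 1.17e-07 and 1.69e-13), which is 3.7-fold after 2 h. In libraries labelled FosKO it rose by 0.26 after 1 h (adjusted p 0.0352) and 0.42 after 2 h (adjusted p 0.000401), which is 1.34-fold after 2 h. The response difference was 0.17 after 0.5 h (95% interval -0.094 to 0.44), -0.62 after 1 h (-0.88 to -0.35, adjusted p 0.0134) and -1.47 after 2 h (-1.73 to -1.20, adjusted p 1.08e-07). The value after 2 h ranged from -1.54 to -1.40 over 23 alternatives and was called in each.

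The weaker Ptges calls at 1 h rested on single libraries or on the model. The rise in libraries labelled FosKO lost its call without replicate 1 or 2 at 0 h (0.21 and 0.23, adjusted p 0.131 and 0.106) or without replicate 2 or 3 at 1 h (0.27 and 0.19, adjusted p 0.0623 and 0.178), and with all libraries kept it lost it without the filter (adjusted p 0.0521) and with only the groups compared (0.119). The response difference at 1 h lost it without FosKO replicate 3 at 0 h (-0.55, adjusted p 0.0518), in the high 18S libraries alone (-0.68, adjusted p 0.0776) and with only the groups compared (adjusted p 0.0505). Within the high 18S libraries the genotype difference was 0.87 at 0.5 h and -0.067 at 1 h, and within the low ones 0.61 and -0.068.

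Of the other prostaglandin E synthases, Ptges3, a cytosolic cochaperone of Hsp90, rose with LPS in both genotypes. In LysM-Cre libraries it was 11.01, 11.10 and 11.04 before LPS and 11.52, 11.52 and 11.56 after 2 h, and in libraries labelled FosKO 10.94, 10.99 and 10.90 before LPS and 11.44, 11.42 and 11.46 after 2 h. No library after 2 h overlapped those before LPS. The rise after 2 h was 0.48 (adjusted p 2.39e-10) and 0.50 (adjusted p 1.39e-10), and the response difference was 0.015 (95% interval -0.092 to 0.12). Under quantile normalisation the rises were 0.28 and 0.27 and kept their calls.

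Ptges3 was called lower in the libraries labelled FosKO by small amounts: -0.10 before LPS (limma adjusted p 0.0291), -0.11 after 1 h (0.021) and -0.09 after 2 h (0.0491). Before LPS it was not called once LysM-Cre replicate 2 (-0.079), LysM-Cre replicate 3 (-0.11), FosKO replicate 1 (-0.10) or FosKO replicate 3 (-0.082) was removed, nor after 1 h once LysM-Cre replicate 2 (-0.11), LysM-Cre replicate 3 (-0.085) or FosKO replicate 2 (-0.077) was removed. In the high 18S libraries alone the value after 1 h was -0.088 (adjusted p 0.253), and with only the groups compared the adjusted p was 0.074 before LPS and 0.0923 after 1 h. Without the filter it was 0.0514 before LPS. At 2 h leaving out any of the 6 libraries lost it (-0.098 for LysM-Cre replicates 1 and 2, -0.075 for 3, and -0.091, -0.078 and -0.10 for FosKO replicates 1, 2 and 3), and so did the replicate block (adjusted p 0.0503), no filter (0.0837) and no trend on the mean (0.0691). Quantile normalisation gave larger differences, of -0.18 before LPS and -0.19 after 2 h (adjusted p 0.000956 and 0.000318), and called that after 0.5 h too (-0.14, 0.00646). Ptges2, a membrane-associated synthase, lay between 7.06 and 7.48 in all 24 libraries and was called in none of the 13 comparisons. Its genotype difference after 2 h was -0.10 (95% interval -0.27 to 0.061), and after 1 h of LPS in LysM-Cre libraries it changed by -0.20 (-0.36 to -0.034, adjusted p 0.055), which 5 alternatives called (smallest adjusted p 0.0269).

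Tbxas1, which makes thromboxane, had the narrowest range of the members (10.99 to 11.23). At 2 h it was 11.01, 11.05 and 10.99 in LysM-Cre libraries and 11.11, 11.10 and 11.19 in libraries labelled FosKO, which did not overlap. The difference was 0.12 (SE 0.03, limma adjusted p 0.00325), and it fell to 0.015 under quantile normalisation (adjusted p 0.757). The change of -0.078 after 2 h in LysM-Cre libraries (adjusted p 0.0292) lost its call without replicate 1 or 2 before LPS (-0.059 and -0.08) or replicate 1 or 3 after 2 h (-0.077 and -0.063), without the filter (adjusted p 0.051) and in the high 18S libraries alone (0.052). Quantile normalisation made it larger (-0.27, adjusted p 2.67e-07) and gave a called fall in libraries labelled FosKO as well (-0.24, adjusted p 1.75e-06, against -0.0043 otherwise).

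In the leukotriene branch, Alox5ap was the most abundant member per kilobase of exon, and it too had lower levels in FosKO-labelled libraries throughout. At 0 h it was 12.54, 12.57 and 12.52 in LysM-Cre libraries against 12.25, 12.14 and 12.06, and after 2 h 12.49, 12.52 and 12.45 against 12.27, 12.21 and 12.24. The genotypes did not overlap at any of the 4 times. The differences were -0.40 before LPS, -0.41 after 0.5 h, -0.32 after 1 h and -0.24 after 2 h (SE 0.042, limma adjusted p 4.06e-07, 1.54e-07, 5.51e-06 and 7.51e-05). Within the high 18S libraries they were -0.46 after 0.5 h and -0.30 after 1 h, and within the low ones -0.32 and -0.31. LPS gave no called change in either genotype (-0.06 and 0.09 after 2 h), but under quantile normalisation the values after 2 h were -0.35 in LysM-Cre and -0.25 in libraries labelled FosKO (adjusted p 9.64e-06 and 0.000414), the latter with its sign turned. That setting also made the genotype difference after 2 h -0.37. Without FosKO replicate 1 before LPS the FosKO change after 2 h was 0.14 (0.00566). A replicate block and a replicate block within genotype also called the FosKO change of 0.09 after 2 h (limma adjusted p 0.0496 and 0.0168). The block within genotype called the FosKO change after 1 h too (0.094, adjusted p 0.0241). In the model used throughout, the response difference after 2 h was 0.15 (95% interval 0.025 to 0.28, adjusted p 0.104). It was called with the block within genotype (0.15, adjusted p 0.0227) and without FosKO replicate 1 before LPS (0.20, 0.0169).

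Lta4h, which makes leukotriene B4, followed the same order with smaller differences. At 0 h it was 9.87, 9.96 and 9.95 in LysM-Cre libraries and 9.77, 9.70 and 9.68 in libraries labelled FosKO, and after 2 h 9.93, 9.89 and 9.92 against 9.83, 9.84 and 9.87. The genotypes were apart at both times, more narrowly after 2 h. The difference was -0.21 before LPS, -0.15 after 0.5 h and -0.13 after 1 h (adjusted p 0.000141, 0.00291 and 0.011), and -0.068 after 2 h (95% interval -0.15 to 0.0084, adjusted p 0.143), which quantile normalisation made -0.11 (0.0369). Removing LysM-Cre replicate 2 (-0.11, adjusted p 0.0556) or FosKO replicate 3 (-0.10, 0.0662) ended the call after 1 h, as did using the high 18S libraries alone (-0.12, 0.175). The rise of 0.13 after 2 h in libraries labelled FosKO (adjusted p 0.00444) fell to 0.043 under quantile normalisation (adjusted p 0.395).

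Alox5, the lipoxygenase itself, was the lowest member and was called in none of the 13 comparisons. At 0 h it was 5.26, 5.26 and 5.01 in LysM-Cre libraries and 5.51, 5.26 and 4.82 in libraries labelled FosKO, and after 2 h 5.09, 5.10 and 5.21 against 5.33, 5.39 and 5.57. The ranges overlapped before LPS and not after 2 h. The difference after 2 h was 0.30 (95% interval 1.1e-05 to 0.60, adjusted p 0.0985, and 0.0467 with only the groups compared). In libraries labelled FosKO Alox5 changed by 0.24 after 2 h of LPS (limma adjusted p 0.162). That change was called under quantile normalisation (0.33, 0.0466) and without FosKO replicate 1 before LPS (0.39, 0.0239). Its SE of 0.14 was the widest of the members, so differences of this size were near the limit of what 3 libraries per group could show.

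Markers of cell types were also compared between the genotypes. Over all tested genes 19.5% were called higher and 15.9% lower at 0 h, and 24.4% and 20.3% at 2 h. The lists hold few tested genes to set against these shares. Of 9 neutrophil markers 4 were tested and all 4 were called lower in libraries labelled FosKO at 0 h and at 2 h. Over all times, the 8 neutrophil markers in the table had a summed linear level of 80.4 to 173 in LysM-Cre and 55.5 to 89.2 in FosKO libraries. The defining genes Ly6g and Elane lay at the lowest values of the table. Of 5 platelet markers 2 were tested, both lower at 0 h and 1 at 2 h, and Gp9 was at most -1.64. The tested mast cell marker Kit was called lower at 0 h. Over all times, the 3 mast cell markers in the table had a summed linear level of 26.2 to 44 in LysM-Cre and 22.1 to 34.4 in FosKO libraries. The 1 tested T cell marker, Cd4, was called higher at 0 h and at 2 h (7.57 to 8.44 over all libraries), with Cd3e, Cd3d, Cd3g and Cd8a too low to be tested. Of the tested dendritic cell (3), B cell (1) and fibroblast or stromal (3) markers none was called at 0 h and 1 of each list was lower at 2 h. Of 7 macrophage markers 4 were called higher and 3 lower at 0 h, and 4 higher at 2 h. The part of any of these in the levels of Ptgs1, Alox5ap and Lta4h was not tested.

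The rest of the eicosanoid pathway was described from a list of 59 further genes, of which 55 were in the table and 41 were tested. Between the genotypes 11, 12, 8 and 14 of the 41 were called higher at 0, 0.5, 1 and 2 h and 9, 8, 8 and 8 lower, with medians of 0.0048, 0.0023, 0.081 and 0.075. Over all tested genes 19.5%, 21.2%, 17.98% and 24.4% were higher and 15.9%, 19.7%, 15.9% and 20.3% lower. With LPS in LysM-Cre libraries 1, 6 and 12 were higher and 0, 2 and 10 lower at 0.5, 1 and 2 h, and in libraries labelled FosKO 1, 4 and 13 were higher and 0, 1 and 5 lower. The shares over all tested genes were 5.09%, 19.2% and 30.6% higher and 2.15%, 16.5% and 30.21% lower in LysM-Cre, and 4.45%, 17.6% and 32.6% higher and 1.47%, 15.0% and 29.5% lower in FosKO libraries. In the response, 0, 0 and 2 were called lower and 0, 1 and 1 higher in libraries labelled FosKO, against 0.101%, 0.727% and 7.70% lower and 0.0144%, 0.489% and 7.27% higher over all tested genes. Ptger2, Ptger4 and Pla2g16 were the genes of the list called with a 2-fold change in any comparison, and Ptgir is added because its response difference was called.

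The prostaglandin E2 receptors EP2 (Ptger2) and EP4 (Ptger4) and the prostacyclin receptor (Ptgir) signal through cyclic AMP. Ptger2 was 5.96, 5.86 and 5.83 before LPS and 7.46, 7.42 and 7.41 after 2 h in LysM-Cre libraries, and 6.18, 6.18 and 6.05 before LPS and 6.69, 6.46 and 6.57 after 2 h in libraries labelled FosKO. Like Ptges, it was lower in all 3 libraries labelled FosKO after 2 h. Before LPS it was higher there by 0.25 (adjusted p 0.0411), a call lost in 7 alternatives. It rose by 1.54 in LysM-Cre (adjusted p 7.16e-12) and by 0.44 in FosKO libraries (adjusted p 0.000342), and the response difference was -1.10 (SE 0.13, adjusted p 6.02e-06).

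Ptger4 was 9.32, 9.28 and 9.33 before LPS, 9.96, 10.11 and 10.00 after 0.5 h, 9.88, 9.91 and 9.91 after 1 h and 10.14, 10.15 and 10.24 after 2 h in LysM-Cre libraries. The libraries labelled FosKO had 9.04, 9.0 and 9.30, then 9.55, 9.47 and 9.70, then 10.32, 10.44 and 10.45, then 10.49, 10.38 and 10.38. The difference before LPS was -0.19 (adjusted p 0.0285), a call lost in 5 alternatives, and the ranges overlapped there. These libraries were below LysM-Cre after 0.5 h and above it at 1 and 2 h, the reverse of the order seen for Ptges after 2 h. The differences were -0.45 after 0.5 h (limma adjusted p 1.2e-05), 0.50 after 1 h (4.44e-06) and 0.24 after 2 h (0.00514), the last of which fell to 0.15 under quantile normalisation (adjusted p 0.0662). Within the high 18S libraries the difference was -0.45 after 0.5 h and 0.56 after 1 h, and within the low ones -0.45 and 0.41. The response difference was 0.69 after 1 h (adjusted p 0.000141) and 0.43 after 2 h (adjusted p 0.00291).

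Ptgir was 8.60, 8.41 and 8.35 before LPS and 9.25, 9.22 and 9.33 after 2 h in LysM-Cre libraries, and 8.91, 8.93 and 8.93 before LPS and 9.05, 8.88 and 8.96 after 2 h in libraries labelled FosKO. It was higher in libraries labelled FosKO before LPS (0.47, adjusted p 1.24e-05) and lower after 2 h (-0.31, adjusted p 0.000763). It rose by 0.82 in LysM-Cre (adjusted p 9.44e-10) and its change in FosKO libraries was 0.04 (95% interval -0.099 to 0.18). The response difference after 2 h was -0.78 (SE 0.094, adjusted p 7.47e-06).

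**Figure D4:**
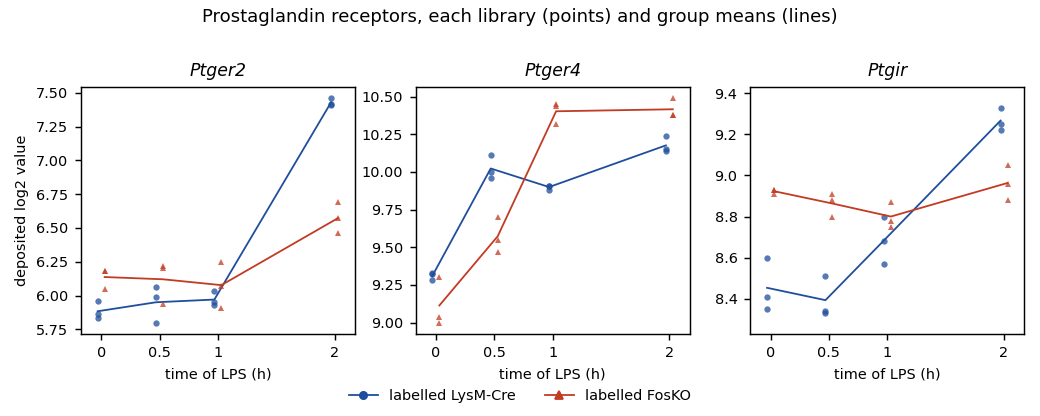
Deposited log2 values (vertical axis, with its own range in each panel) of Ptger2, Ptger4 and Ptgir against the time of LPS in hours, with 1 point per library and lines through the means of 3 libraries. Ptger2 reached 7.41 to 7.46 in LysM-Cre and 6.46 to 6.69 in libraries labelled FosKO at 2 h, and Ptger4 was higher in the latter at 1 and 2 h.

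Of the 41 genes, 7 were called higher in libraries labelled FosKO at all 4 times (Pla2g7, Pla2g16, Lpcat2, Fam213b, Mgst1, Ggt5 and Cysltr2) and 6 were called lower (Anxa1, Akr1b8, Mgst3, Dpep2, Abcc1 and Abcc4), against 11.4% and 7.11% of all tested genes. Those with a difference of at least 0.6 in size at any time, a limit chosen after their values were seen, are described here. Pla2g16, a phospholipase, was higher in libraries labelled FosKO by 0.90, 1.25, 0.86 and 0.82 (limma adjusted p at most 5.61e-05), though its libraries at 0.5 h had an SD of 0.42 and the difference there was 1.45 within the high and 0.85 within the low 18S libraries. Pla2g16 also rose after 2 h of LPS in both genotypes (by 0.77 in LysM-Cre and 0.69 in libraries labelled FosKO, adjusted p 5.51e-05 and 0.000188). The cysteinyl leukotriene receptor Cysltr2 was higher by 0.71, 0.92, 0.60 and 0.43, and the glutathione transferase Mgst1 by 0.68, 0.77, 0.55 and 0.60, each called. Ggt5, a gamma-glutamyltransferase that acts on leukotriene C4, was higher by 0.64, 0.73, 0.81 and 0.68. The aldo-keto reductase Akr1b8 was lower, with differences of -0.72, -0.67, -0.69 and -0.65 (limma adjusted p at most 2.11e-09). With 2 h of LPS Cysltr2 rose by 0.69 in LysM-Cre and 0.41 in libraries labelled FosKO (adjusted p 0.000198 and 0.014). Abcc1, which exports leukotriene C4, was lower (differences of -0.52, -0.63, -0.51 and -0.55) and was called at each time, and it rose after 2 h of LPS by 0.71 and 0.69 in the respective genotypes (adjusted p 2.44e-10 and 3.97e-10). Ltc4s, the leukotriene C4 synthase, was called in none of the comparisons (difference at 2 h 0.26). Ptgds was at its floor of about -2.1 in every group and was not tested.

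The genes whose 24 values most resembled those of a member were also listed, with Pearson's r across the libraries as a description, since the libraries share groups and normalisation. For Ptgs2 they were Marcksl1 (r = 0.995), Ccl3 (0.991) and Brd2 (0.990). For Ptges they were Col15a1 (0.948), Trappc10 (0.944) and Slc39a13 (0.939). For Ptgs1 they were Slco2b1 (0.975), Itga6 (0.970) and Cgnl1 (0.967).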

How the data were processed

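RNA sequencing values of 24 libraries in 8 groups were analysed. The authors deposited normalised log2 values, 1 per gene and library. The submitters' processing notes name STAR 2.5.2a, RSEM 1.2.31, DESeq2 1.16.1 and GRCm38. The transform is not given in the sources used here. The values resemble a regularised log, which pulls genes with few reads towards their mean and would understate their differences. Whole reads could not be recovered, so no count test was run. All value columns were used.

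Genes were tested where 2 to the power of the value reached 5 or more in 3 or more libraries (13901 genes). One limma 3.58.1 fit (R 4.3.3) had 8 group means, no other term, 16 residual degrees of freedom and a trend on the mean. It gave 13 two-sided comparisons with Benjamini-Hochberg adjustment over all tested genes. An exact permutation test of 3 against 3 libraries cannot go below 0.1, so none was used. Alternatives changed scaling (quantile, TMM factors of the linear values), filter, pseudocount (1), variance model, samples, replicate block and 18S set.

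Named genes were the members, pathway genes called with a 2-fold change or explained by their role, and the 3 genes most like Ptgs2, Ptges and Ptgs1. Members, lists and the 18S split were chosen with earlier results of these data known. GENCODE gave coordinates for all 10 members and RefSeq promoter windows for 9.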

Additional observations from a re-analysis of the deposited data

Results flagged for a closer look

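The change from 0 h differed between the genotypes, by limma's test of the difference itself, for 2 members and 3 receptors. At 2 h 2 of 10 members and 3 of the 41 further pathway genes were called, against 15.0% of all tested genes. At 1 h it was 1 of 10 and 1 of 41, against 1.22%. For Ptges the difference (libraries labelled FosKO minus LysM-Cre) was -0.62 at 1 h (adjusted p 0.0134) and -1.47 at 2 h (adjusted p 1.08e-07), and for Ptgs2 it was 0.61 at 2 h (adjusted p 0.0252). The Ptges call at 2 h held under all alternatives tried. The 1 h result missed the threshold with high 18S libraries alone (adjusted p 0.0776), with only the groups compared (0.0505) and without FosKO 0 h replicate 3 (0.0518). The Ptgs2 call was lost under quantile normalisation (0.39, adjusted p 0.157) and on leaving out each of 6 single libraries (adjusted p 0.0517 to 0.0702). For the prostaglandin E2 receptors the response difference was -1.10 at 2 h for Ptger2 (adjusted p 6.02e-06), and 0.69 at 1 h and 0.43 at 2 h for Ptger4 (adjusted p 0.000141 and 0.00291). For the prostacyclin receptor Ptgir it was -0.78 at 2 h (adjusted p 7.47e-06). Ptgs2 and Ptges, which act in sequence to make prostaglandin E2, had response differences of opposite sign at 2 h, with the Ptgs2 call subject to the losses above. Among the receptors of prostaglandin E2, Ptger4 and Ptger2 also had response differences of opposite sign at 2 h. Ptger1 and Ptger3 were tested and were not called there.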

How the results depend on the processing

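Of 77 single results, 57 kept their sign and call under all alternatives tried, at most 23 each. Over 1326 pairs of a result and an alternative, 74 lost a call, 6 gained one and 6 changed sign. These are mostly results that passed the threshold, so gains by other members are not among them. Of 86 member comparisons that did not pass, 19 did under at least 1 alternative, with 43 such calls in all. The sign changes were Ptgs1 after 2 h in libraries labelled FosKO (0.06 under quantile normalisation, and -0.15 to 0.036 when each library was left out, with 0.036 without FosKO 0 h replicate 1) and Ptges between the genotypes at 1 h (0.011 under quantile normalisation, and 0.051, 0.052 and 0.0023 without LysM-Cre replicate 1, FosKO replicate 1 and FosKO replicate 2, the range over libraries left out being -0.078 to 0.052). The number of members called between the genotypes at 1 h, which was 5, was 3 in the high 18S libraries alone and ranged from 3 to 5 when each library was left out, with 3 without LysM-Cre replicate 2. The number for the response at 1 h, which was 1, was 0 in the high 18S libraries alone and with only the groups compared, and 0 to 1 when each library was left out. That for the response at 2 h, which was 2, ranged from 1 to 4, and that for 0.5 h of LPS in FosKO, which was 1, from 1 to 2, in the same way. The main fit called 33.9%, 1.22%, 15.0% and 5.92% of all tested genes in these comparisons, in the order given. The shares with fewer libraries are not given here, so whether these moves are particular to the members cannot be told. In the high 18S libraries alone LysM-Cre at 1 h keeps 1 library, which is assumed to vary like the others. Same-numbered libraries correlated above 0.1 in 12 of 36 pairs of LPS times and 2 of 12 pairs of genotypes, against 4 of 72 and 8 of 24 pairs with different numbers. The medians were 0.06 and -0.02 for the same numbers, against -0.03 and 0.01 for different ones. Same-numbered pairs at or below 0.1 do not exclude pairing, and whether the numbers pair the libraries is not settled here. The main fit has no replicate term, and results with a replicate block are given beside it. With a replicate block the response at 2 h had 4 members called, and with a replicate block within genotype 5, as had 1 h of LPS in FosKO (3 otherwise). Over all tested genes the share called in the response at 2 h went from 15.0% to 16.7% and 18.3%, and at 1 h in FosKO from 32.6% to 35.6%. Under both blocks 6 members were called after 2 h of LPS in FosKO (4 otherwise) and 6 in LysM-Cre (5 otherwise). The shares over all tested genes went from 62.1% to 63.0% and 64.0%, and from 60.8% to 61.3% and 62.5%. Pla2g4a was gained as higher in FosKO (0.14, limma adjusted p 0.023 and 0.0181) and as lower in LysM-Cre (-0.13, 0.0289 and 0.0229). Alox5ap was gained in FosKO (0.09, 0.0496 and 0.0168). The replicate block also took the call from Ptges3 between the genotypes at 2 h (-0.09, adjusted p 0.0503) and gave one to Ptgs1 and Pla2g4a in the response at 2 h (0.33, 0.0492 and 0.27, 0.013). The causes were not tested. The read number of each library is not given, and the lowest member, Alox5, had the widest error.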

Other observations

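Ptgs2os2, an opposite-strand gene named after Ptgs2, was looked at after the values of Ptgs2 were known and is described without a test. Its mean in LysM-Cre libraries was 3.60 ± 0.056 (SD, n = 3) before LPS, 3.70 ± 0.28 after 0.5 h, 4.36 ± 0.11 after 1 h and 5.01 ± 0.098 after 2 h. In libraries labelled FosKO it was 3.86 ± 0.20, 3.64 ± 0.18, 4.72 ± 0.038 and 5.48 ± 0.078. Its levels were highest at 2 h in both genotypes, as those of Ptgs2 were, and lay far below them.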
